A study of Mus musculus with 4 samples.

Results

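The genes that carry a T cell through G1 were examined for Trim33 binding in T helper 17 (Th17) cells. These were 3 D-type cyclins (Ccnd1, Ccnd2, Ccnd3), their kinases Cdk4 and Cdk6, cyclin E1 (Ccne1), the inhibitors Cdkn1a, Cdkn1b and Cdkn2c, and the retinoblastoma gene Rb1. They were taken by name, as 10 of 21887 protein-coding genes. Each locus was the RefSeq gene body in mm10 with 10 kb on each side, and it held every Trim33 peak whose summit, the position of greatest enrichment, fell inside it. The 10 loci held 43 of 27050 peaks, and no peak fell in more than 1 of these loci. The cells came from C57BL/6 mice: naive CD4+ T cells of spleen and lymph nodes were cultured on plates coated with antibodies to CD3 and CD28, with IL-6, TGF-beta and antibodies that block IL-4 and IFN-gamma. Chromatin was immunoprecipitated with an antibody to Trim33 in 2 libraries, and 2 libraries of input DNA carried no antibody. All 4 libraries came from the same kind of culture, so there was no second condition, genotype or time point to compare. The deposited peaks were called on the merged libraries, so each peak had 1 value and no spread between cultures, and the depth of each library is unknown here.

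Entry into the cell cycle turns on a short chain of proteins. D-type cyclins bind CDK4 and CDK6, and the active kinases phosphorylate the retinoblastoma protein, which then releases E2F factors that switch on S phase genes, cyclin E1 among them. Cyclin E1 with CDK2 carries the phosphorylation further. INK4 proteins such as p18 (Cdkn2c) hold CDK4 and CDK6 directly, whereas the Cip/Kip proteins p21 (Cdkn1a) and p27 (Cdkn1b) bind cyclin and kinase together. Resting T cells rely on p27 and p18 to stay out of cycle, and TGF-beta, which was present in these cultures, is known to restrain lymphocyte proliferation in part through CDK inhibitors. Trim33, also called TIF1-gamma, is a chromatin-binding ubiquitin ligase with known links to SMAD proteins, the transcription factors of the TGF-beta pathway.

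Some of the members had a summit just upstream of the start site. RefSeq promoter windows (GRCm38.p6, 250 bases before to 50 after a start site) were matched for 7 of the 10 genes, and 4 of these 7 had a summit within 1000 bp of a start site. Of 17492 protein-coding genes in the same table, 34.8% had one. All 4 summits were upstream: 149 bp before the start of Cdk4, 145 bp before that of Ccne1, 90 bp before that of Cdkn2c and 85 bp before that of Cdkn1b. Among all genes with a start-site summit the median position was −39 bp (quartiles −109 and 22), and 57.7% lay within the 250 bp before the start. Cdkn2c and Cdkn1b were thus inside these quartiles, and Cdk4 and Ccne1 lay farther upstream. The part of each peak that lies upstream of the start site and inside the window is printed below, because all 4 summits lay there. The Cdk4, Ccne1 and Cdkn2c peaks also ran past the start site, and those bases are not printed. Of the 702 bp of the Ccne1 peak, 250 are printed. Each printed part is given 5′ to 3′ on the strand of its gene. Capitals mark exact matches, on either strand, to CACGTG (the E-box of basic helix-loop-helix factors), GGGCGG (the Sp1 and KLF box) or CCAAT (the NF-Y box).
Cdk4, chr10:127063285-127063534, plus strand: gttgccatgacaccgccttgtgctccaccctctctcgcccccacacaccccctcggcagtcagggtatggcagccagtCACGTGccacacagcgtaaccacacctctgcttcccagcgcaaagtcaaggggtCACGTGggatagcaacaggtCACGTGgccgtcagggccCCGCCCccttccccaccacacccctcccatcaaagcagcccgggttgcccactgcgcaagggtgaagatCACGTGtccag
Ccne1, chr7:38107491-38107740, minus strand: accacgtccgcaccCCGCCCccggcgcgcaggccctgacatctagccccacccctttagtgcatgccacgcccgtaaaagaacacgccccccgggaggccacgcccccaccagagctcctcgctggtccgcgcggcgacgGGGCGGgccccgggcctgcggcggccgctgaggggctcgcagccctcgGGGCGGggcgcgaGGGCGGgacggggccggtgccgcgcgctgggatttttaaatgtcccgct
Cdkn2c, chr4:109666757-109666961, minus strand: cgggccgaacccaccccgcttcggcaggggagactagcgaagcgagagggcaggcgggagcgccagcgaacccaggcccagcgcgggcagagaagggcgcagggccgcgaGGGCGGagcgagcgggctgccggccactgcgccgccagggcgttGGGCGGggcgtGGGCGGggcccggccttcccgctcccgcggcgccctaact
Cdkn1b, chr6:134920237-134920380, plus strand: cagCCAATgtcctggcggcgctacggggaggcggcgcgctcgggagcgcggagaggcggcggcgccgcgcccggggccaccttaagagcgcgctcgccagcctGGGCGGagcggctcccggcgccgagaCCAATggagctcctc

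The Cdk4 stretch stood out by its repeats of the E-box. CACGTG occurred 4 times, beginning 172, 118, 98 and 11 bases before the start site, and the summit lay 149 bp before it, between the first and the second. Of 32851 promoter windows, 7.15% held CACGTG and 8 windows (0.0244%) held it 4 times or more. A summit lay inside 5413 of the 32851 windows, and 11.6% of these held CACGTG. Of the 8 windows, 4 had a Trim33 summit inside (0.0739% of the 5413), the Cdk4 window among them. This count of repeats was singled out after the letters were read. GGGCGG was in all 4 stretches, 4 times in Ccne1, 3 times in Cdkn2c and once each in Cdk4 and Cdkn1b. It was in 35.7% of all windows and in 74.4% of the 5413 windows with a summit, so most bound promoters held it. CCAAT occurred only in Cdkn1b among the 4, once at each end of the stretch, and in 31.7% of windows with a summit and 37.4% of all windows. The shares are of whole windows, whereas the counts are of the printed stretches. Past the start site the windows also held GGGCGG in Cdk4 and Cdkn2c and CCAAT in Cdkn1b. The other letters searched were TTTNGCGC and TTTCCCGC for E2F, CCGGAAG for ETS, GTCTAGAC and CAGACAG for SMAD, TGACGTCA for CREB, TGANTCA for AP-1, GCGCATGCG for NRF1 and TTCNNNGAA for STAT. None of these letters was in the windows of these 4 start sites. The share of all windows that held each of these motifs ran from 0.213% (GTCTAGAC) to 8.86% (CCGGAAG). Among windows with a summit it ran from 0.222% (GTCTAGAC) to 25.2% (CCGGAAG). With 4 windows their absence says nothing about these promoters. CAGACAG was in 1 window of Cdkn1a that held no summit, 137 bases before the start, and in 7.73% of all windows. CCGGAAG was likewise in a window of Ccnd3 without a summit, 138 bases before its second start site.

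The bound start sites were rich in CpG. The windows of Ccne1, Cdkn2c, Cdkn1b and Cdk4 held 41, 33, 30 and 22 CpG dinucleotides, and their GC content was 76.0%, 73.3%, 62.0% and 67.0%. All windows with a summit had a median of 25 CpG (quartiles 19 and 33) and 64.3% GC, and all windows together a median of 7 CpG and 52.7% GC. The members' windows without a summit overlapped this range: 27 CpG at Cdk6, 15 and 28 at the 2 start sites of Ccnd3, 2 and 23 at those of Cdkn1a, and 8 at the second start site of Cdkn2c. A CpG-rich start site was therefore bound in some of these genes and held no summit in others.

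**Figure D1:**
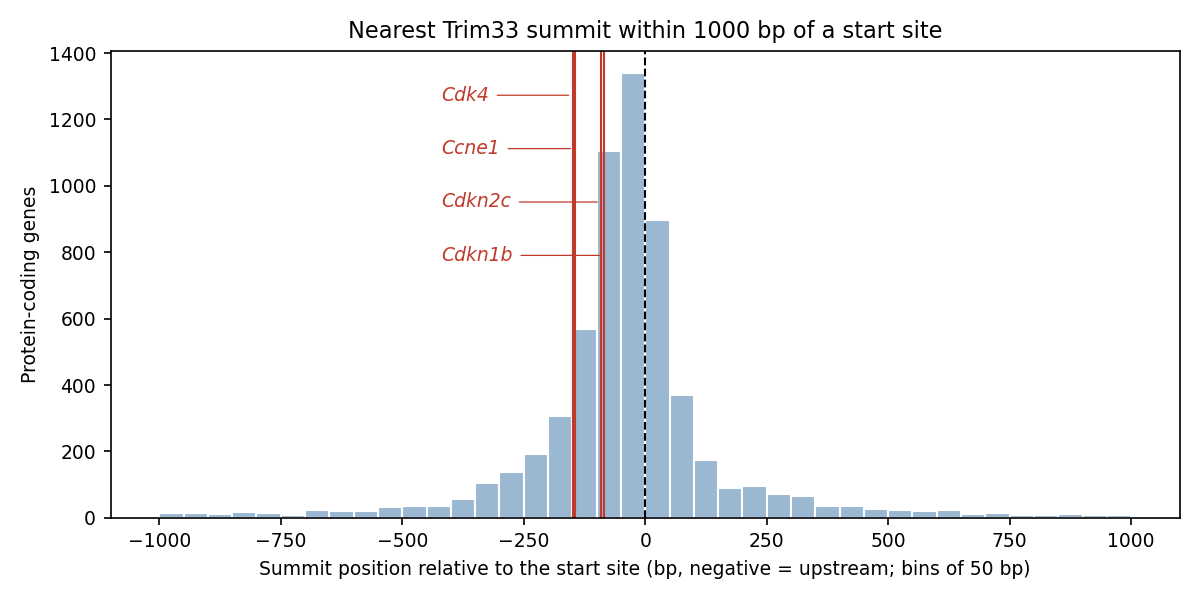
Position of the nearest Trim33 summit for the 6087 protein-coding genes with a summit within 1000 bp of a start site; the horizontal axis gives bp from the start site, negative upstream, and bars count genes per 50 bp. Red lines mark Cdk4 (−149), Ccne1 (−145), Cdkn2c (−90) and Cdkn1b (−85), all on the upstream side, where 66.9% of all these summits lay.

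Each of the 10 genes held at least 1 summit in its locus, against 53.9% of protein-coding genes. In 7 of the 10 a summit stood at an end of its own gene, no more than 1000 bp from it (Ccnd2, Cdk4, Cdk6, Ccne1, Cdkn1b, Cdkn2c and Rb1), against 33.4% of protein-coding genes. Ccnd1, Ccnd3 and Cdkn1a had none at either end. Of the 43 summits, 8 lay at an end of their own gene, 25 inside a gene body away from its ends and 10 in the flanks. Of the flank summits, 4 lay within 1000 bp of an end of another protein-coding gene. Exons and introns were not told apart here.

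The enrichment of these peaks was even and moderate. The deposited fold enrichment at the summit, the authors' value, was between 3.50 and 8.09, its median 6.39 and its quartiles 5.12 and 7.10. All 27050 peaks had a median of 6.00 (quartiles 4.87 and 7.76) and a maximum of 54.6. None of the 43 peaks reached 10-fold, which 11.1% of all peaks did. A count of 0 of 43 allows a share of up to 6.98%, for counting error only, and peaks of a locus are not independent. In all, 25 of the 43 (58.1%) were at or above the median of the list. The highest folds of the 10 genes had a median of 7.40 against 7.03 (quartiles 5.51 and 9.15) for all protein-coding genes with a summit. Of those genes 18.7% reached 10-fold, and none of the members did. In order, the highest folds were 8.09 (Ccnd1), 7.99 (Ccnd2), 7.83 (Cdk6), 7.54 (Ccnd3), 7.51 (Ccne1), 7.30 (Rb1), 7.15 (Cdkn2c), 7.10 (Cdkn1a), 6.74 (Cdkn1b) and 5.94 (Cdk4). With no value per library, whether neighbours in this order differ cannot be tested. The 7.15-fold summit of the Cdkn2c locus lay 26 bp from an end of Faf1. The 5.94-fold summit of the Cdk4 locus lay 55 bp from an end of Agap2. Counted for the gene with the nearest body alone, the highest folds were 7.04 for Cdkn2c and 4.69 for Cdk4. The widths of the 43 peaks, 138 to 702 bp with a median of 243 bp, were close to those of the whole list (median 227 bp).

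**Figure D2:**
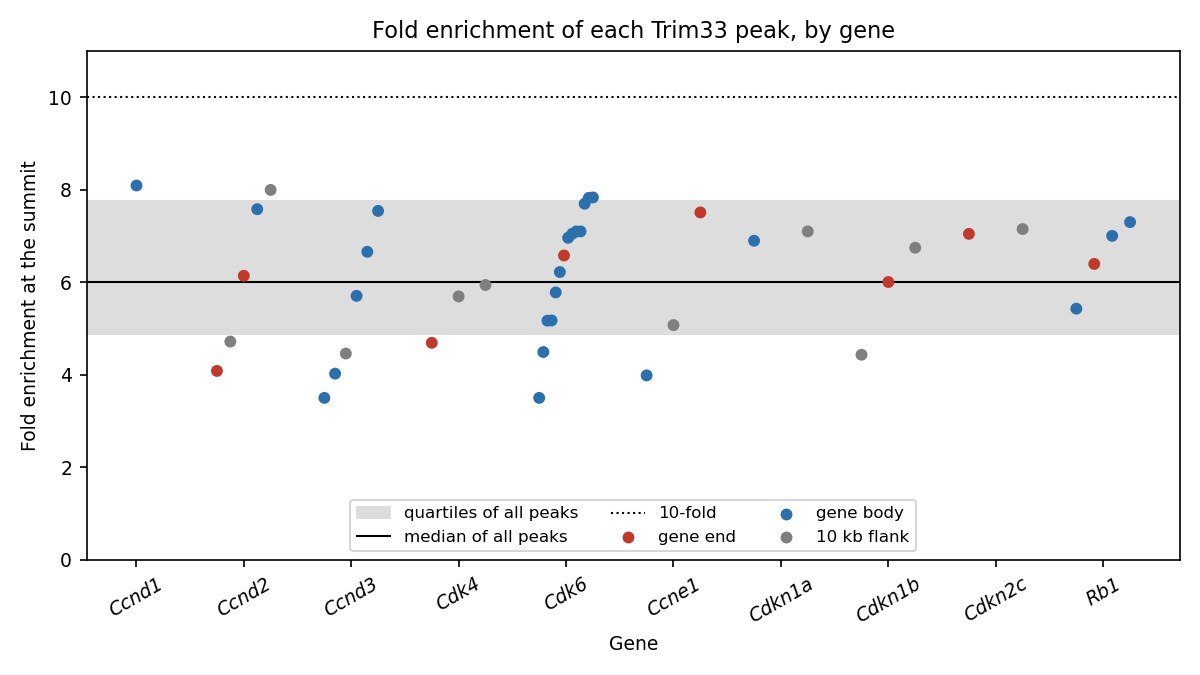
Deposited fold enrichment at the summit for each of the 43 peaks, grouped by gene and coloured by position; the grey band and the line give the quartiles (4.87 and 7.76) and the median (6.00) of all 27050 peaks. All points lie below the dotted line at 10-fold, and Cdk6 holds 14 of them.

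The 3 D-type cyclin genes, whose products start the phosphorylation of Rb1, were bound in different ways. Ccnd1 (chromosome 7, 144929931 to 144939831) had a single summit, of 8.09-fold with a −log10 q of 14.2, and it was the highest of all 43. It lay inside the gene, 2167 bp from its upper end, and ranked 6002 of 27050 peaks. Ccnd2 (chromosome 6, 127125162 to 127152188), a D cyclin that antigen receptors and cytokines induce in lymphocytes, had 5 summits packed into 4636 bp around its upper end. From inside to outside these were 7.58-fold at 1155 bp and 6.14-fold at 369 bp within the gene, then 4.08-fold at 275 bp, 7.99-fold at 2878 bp and 4.71-fold at 3481 bp beyond it. The summits nearest to the end were thus lower than those 1155 bp inside and 2878 bp outside it. No summit lay in the rest of the Ccnd2 body or in its lower flank. All 5 also lay within the body of the long non-coding RNA gene 9330179D12Rik, so they belong to either annotation by position.

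Ccnd3 (chromosome 17, 47505051 to 47599689), a D cyclin needed for the expansion of immature T cells, had 6 summits and none at a gene end. The 5 inside the gene lay 3110, 6246, 10622, 16668 and 26788 bp from its first start site, with 7.54, 4.02, 6.66, 5.70 and 3.50-fold enrichment. They spanned 23.7 kb, 25.02% of the body, and the remaining 67850 bp up to the upper end held none, including the second start site. The summit outside the gene, 4.46-fold and 2732 bp before the first start site, lay 2 bp from the upper end of Taf8, which encodes a TFIID subunit.

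The kinase genes differed most in number of summits. Cdk4 (chromosome 10, 127063535 to 127067288) is a short gene in a crowded region and had 3 summits. The start-site peak, whose E-boxes are given above, had 4.69-fold enrichment and a −log10 q of 8.10, and 20.8% of all peaks were lower. The others had 5.69-fold and 5.94-fold enrichment. They lay 151 bp from an end of Marchf9 and 55 bp from an end of Agap2, and 3200 and 7926 bp from Cdk4, so 2 of its 3 summits sat at neighbouring genes.

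Cdk6 (chromosome 5, 3341004 to 3531008), the partner kinase that is prominent in haematopoietic cells, held 14 of the 43 summits (32.6%), and only 0.251% of protein-coding genes held as many or more. The gene is long, 190005 bp. Of the 739 protein-coding genes of 150 to 250 kb, with a median of 2 summits, 18 held as many as Cdk6 or more. Its density, 6.67 summits per 100 kb of locus, was near the median of 7.23 over the 10 members, and the median over all genes with a summit was 3.62. The summits fell into 2 stretches with 78639 bp between them that held none. The lower stretch began near the lower end and had 4 summits of 6.58, 4.49, 6.96 and 3.50-fold in 41.3 kb. The upper stretch had 10 summits in 51.6 kb, with 5.17 to 7.83-fold enrichment and a median of 7.07. Within it 3 summits of 7.04, 7.82 and 7.69-fold stood inside 2157 bp, the first of them 120163 bp from the lower end. The last 6 spread over 17.9 kb and included the highest of the locus, 7.83-fold in a peak of 598 bp. The 7.69-fold summit had the greatest −log10 q of the 43, 35.2. The first summit, 242 bp from the lower end, lay 2647 bp before the start site in the promoter table, so Cdk6 counts as bound at a gene end but not at that start site. This first summit also lay within the body of the non-coding RNA gene Gm36470.

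**Figure D3:**
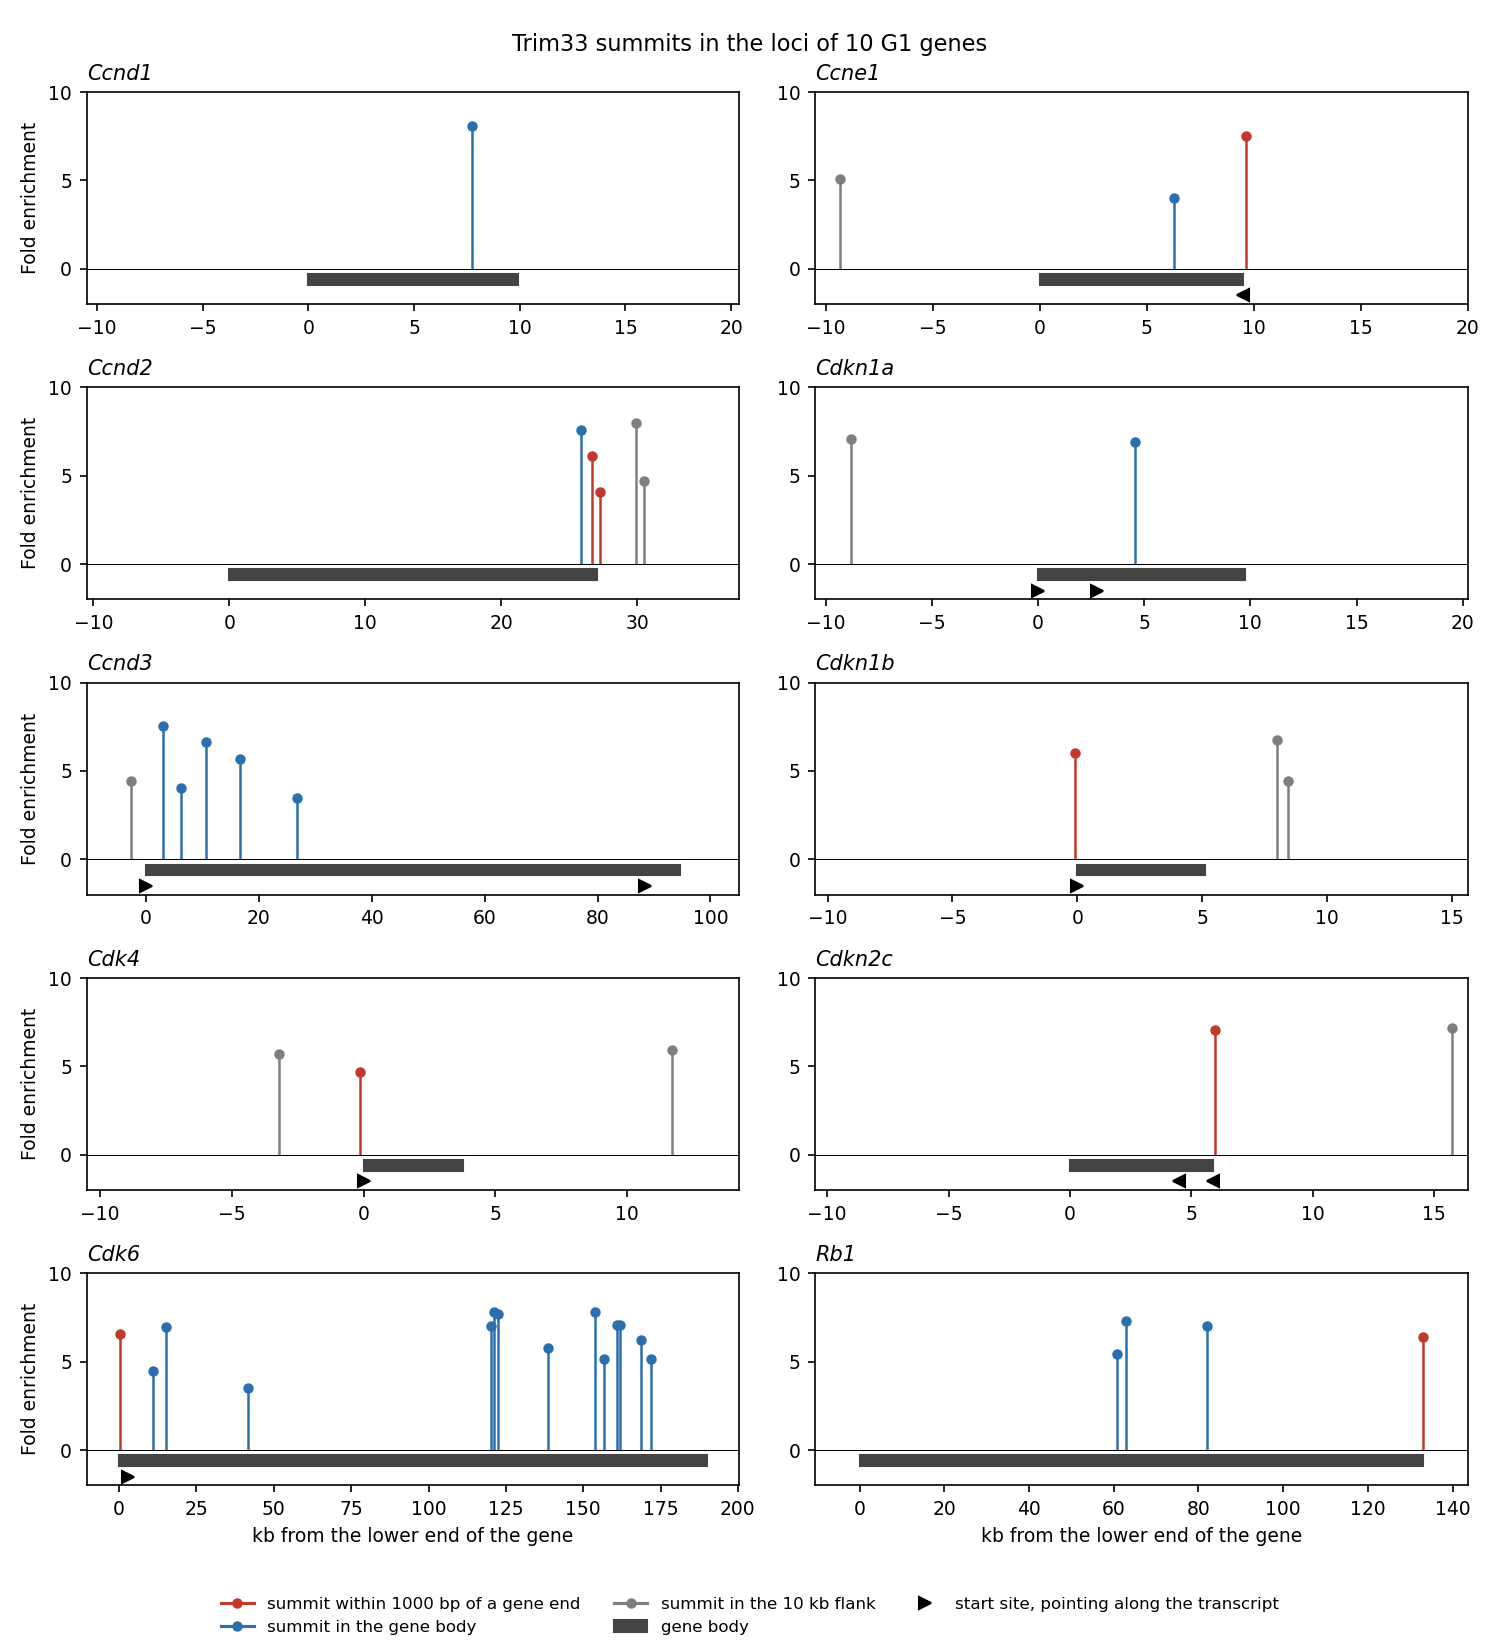
Position and deposited fold enrichment of the 43 summits in the 10 loci; the horizontal axis gives kb from the lower end of each gene, the dark bar is the gene body, and arrowheads are start sites where the promoter table gives one. Ccnd2 summits crowd around its upper end, and Cdk6 shows 2 separate stretches of 4 and 10 summits. Those of Ccnd3 spread from 2732 bp before to 26788 bp after its first start site.

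Ccne1 (chromosome 7, 38097984 to 38107490), the cyclin that activates CDK2, had 3 summits. The start-site peak was 702 bp wide, the widest of the 43 and 96.8% of start-site peaks were narrower. Its enrichment was 7.51-fold with a −log10 q of 23.0, and 73.9% of start-site peaks were lower in fold. The others were weak: 3.98-fold inside the gene, 3227 bp from the start, and 5.07-fold at 9328 bp beyond its lower end. The inner summit had the lowest −log10 q of the 43, 3.57.

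The inhibitor genes were bound with 2 or 3 summits each. Cdkn1b (chromosome 6, 134920401 to 134925525), which encodes p27, had a start-site peak of 6.00-fold that was 144 bp wide, and 3.84% of start-site peaks were narrower. Its highest peak, 6.74-fold and 430 bp wide, lay 2876 bp beyond the upper end, and another of 4.43-fold lay 3311 bp beyond it. These summits were 691 and 256 bp from an end of Lockd, a non-coding RNA gene known to lie downstream of Cdkn1b. Cdkn2c (chromosome 4, 109660876 to 109666756), which encodes p18, had 2 summits of nearly the same fold. The start-site peak reached 7.04-fold, and the other reached 7.15-fold at 9845 bp from the gene and 26 bp from an end of Faf1. Counted by the nearest gene, Cdkn2c thus had its start-site summit alone.

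Cdkn1a (chromosome 17, 29090979 to 29100722), which encodes p21 and is a known target of p53 and of TGF-beta, was the inhibitor gene without a summit at its ends. It had a peak of 6.89-fold and 531 bp in width inside the gene, 1770 bp beyond its second start site, and another of 7.10-fold at 8810 bp before the first start site. Neither of its 2 promoter windows held a summit. All inhibitor peaks except the 4.43-fold peak beside Lockd were at or above the median of the list.

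Rb1 (chromosome 14, 73192858 to 73325951), the substrate of the G1 kinases, had 4 summits in 133094 bp, the lowest density of the 10 genes at 2.61 per 100 kb of locus. A peak of 6.39-fold lay inside the gene, 100 bp from its upper end. The other 3, of 5.43, 7.30 and 6.999-fold, lay 72314, 70169 and 51082 bp from that end, in the middle part of the gene. Lpar6 had the nearest end of a protein-coding gene to these 3, at 13279, 15424 and 34511 bp. The flanks of Rb1 held none. Like Cdk6 and Ccnd3, Rb1 thus had most of its summits inside a long body.

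The limit of 10 kb decided which peaks were counted, and higher peaks lay beyond it. Between 10 and 50 kb from the genes there were 29 further summits. Just inside the limit were the 7.15-fold summit of Cdkn2c at 9845 bp and the 5.07-fold summit of Ccne1 at 9328 bp, and just outside it were a 5.51-fold summit at 11599 bp from Cdk6 and a 5.78-fold summit at 11946 bp from Cdkn1a. The highest beyond the limit, 18.1-fold and ranked 218 of 27050, lay 39701 bp below the lower end of Cdk6. A 14.5-fold summit lay 36569 bp below that end. Cdk6 had the nearest end of a protein-coding gene to both, and both lay within the non-coding RNA gene Gm36470. A 14.7-fold summit 12782 bp above Cdk6 was 43 bp from an end of Fam133b, and a 15.9-fold summit 47142 bp from Cdk4 lay inside Os9. Beyond the lower end of Ccne1 stood 6 summits between 12968 and 36715 bp away, with 5.02 to 9.97-fold enrichment. Ccne1 was the protein-coding gene with the nearest end to each of these 6. With 50 kb on each side the highest fold rose to 18.1 for Cdk6 and to 15.9 for Cdk4.

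The wider G1 and S phase network was bound in most but not all genes. Of 36 further genes, 28 (77.8%) held a locus summit and 22 (61.1%) a summit at an end, beside 53.9% and 33.4% of protein-coding genes. The median of the highest folds was 6.62 over those 28. The 5 highest were Lin54, a DNA-binding subunit of the MuvB complex (12.6-fold), the ubiquitin ligase subunit gene Fbxw7, whose product targets cyclin E (12.2-fold), the Mediator kinase gene Cdk8 (10.8-fold), the INK4 inhibitor gene Cdkn2d (9.34-fold) and Skp2, whose product targets p27 (9.34-fold). The loci of Lin54, Fbxw7 and Cdk8 thus passed 10-fold, which no member did. The highest summit of the Lin54 locus lay in the flank, 5468 bp outside the gene. Those of Fbxw7 and Cdk8 lay 596 and 391 bp from an end of their genes. Of 10 E2F and DP genes 9 held a summit, with highest folds of 4.32 to 9.28, and E2f1 held none. The relatives of Rb1 were both bound, Rbl1 at 8.80-fold and Rbl2 at 4.76-fold. Of 5 other CDK inhibitor genes 3 held a summit: Cdkn2d, and the neighbours Cdkn2a and Cdkn2b, which share their highest peak of 5.90-fold. Cdk2, the partner of cyclin E, had no summit in its locus, and neither had Cdkn1c, Cdkn3, Cks1b, Lin9, Lin37 and Lin52.

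**Figure D4:**
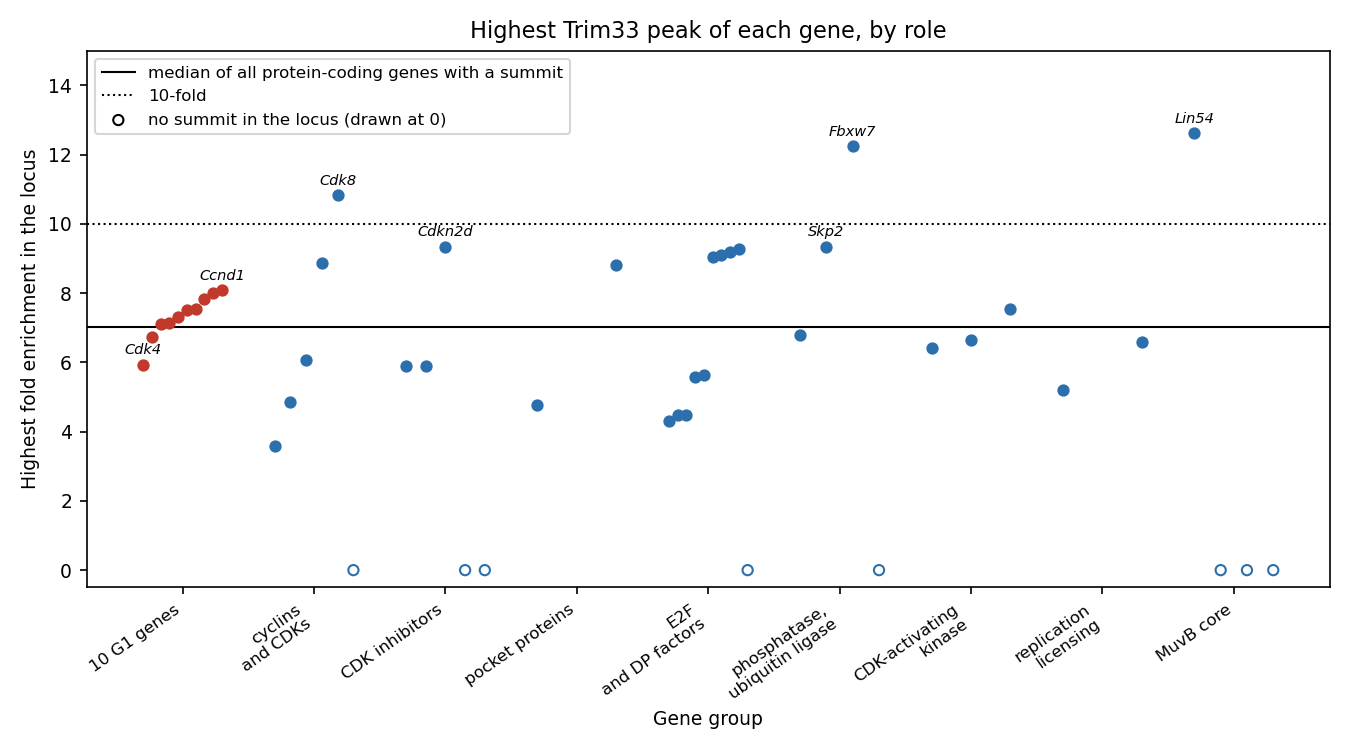
Highest deposited fold enrichment in the locus of each of the 10 G1 genes (red) and of 36 further network genes (blue), grouped by role; open circles at 0 are the 8 genes with no summit, and the line is the median of all protein-coding genes with a summit (7.03). The red points lie between 5.94 and 8.09, within the wider spread of the blue points, which reach 12.6 at Lin54.

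A peak list measures occupancy and not expression, so it checks the labelled cell type only in part. All 6 Th17 genes examined (Il17a, Il17f, Il23r, Ccr6, Rora and Stat3) and all 4 CD4 T cell genes (Cd3e, Cd3d, Cd4 and Cd28) held summits. So did the B cell gene Cd79a (up to 9.61-fold), 2 of 4 myeloid genes (Itgam and Cd14, up to 12.4-fold) and 1 of 4 CD8 and NK cell genes (Cd8b1, 8.92-fold), beside 53.9% of all protein-coding genes. Ms4a1, Cd79b, Csf1r, Lyz2, Cd8a, Ncr1 and Klrb1c held none. These counts do not tell the cell types apart. The share of other cells in the cultures was not tested.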

How the data were processed

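The peak list was made by the submitters, whose processing notes name Trim Galore (version 0.3.7), Bowtie (version 1.2.1.1), MACS2 (version 2.1.1.20160309) and mm10 with no settings. The threshold of calling is not given in the sources used here. The peak names say that the Trim33 libraries were merged before calling. The deposited fold enrichment is a ratio at the summit over the caller's background. The authors also deposited the −log10 q at the summit. The score the authors deposited repeats it, multiplied by 10 and cut to a whole number. Neither that score nor the −log10 p was used. Summits and coordinates are counted from 1.

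Genes were matched by symbol to RefSeq tables of GRCm38.p6, the assembly of mm10, with Python 3.11.15 and pandas 2.3.3. All 10 members and all 36 further genes matched. The promoter table gave start sites for 7 members; Ccnd1, Ccnd2 and Rb1 have no entry. Each locus reached 10 kb beyond both ends of its gene, and a gene-end summit lay within 1000 bp of either end. Assignment was checked on planted summits. The members and lists were chosen with earlier results of these data known, and no test was made: counts are set beside those over all protein-coding genes. Every member is named, with the 5 further network genes of highest fold. The other network genes named (the Rb1 relatives, Cdkn2a, Cdkn2b and the 8 without a summit) were chosen after their values were seen. Alternatives were other flanks, windows and peak sets, overlap in place of summit, and the nearest gene alone.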

Additional observations from a re-analysis of the deposited data

How the results depend on the processing

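The number of summits in the 10 loci, 43 as reported, was 28 in gene bodies alone and 72 with 50 kb on each side. It was 25 with peaks at or above the median fold and also 25 with peaks at or above the median −log10 q, by construction of the stricter sets. Genes with a summit at an end numbered 7, and 4 (Ccnd2, Ccne1, Cdkn2c and Rb1) with the stricter set by −log10 q. Counting summits inside the bodies alone left 3 (Ccnd2, Cdk6 and Rb1). They were 8 with a window of 2500 bp, which adds Ccnd1. Genes with a locus summit numbered 10, and 7 in gene bodies alone and 9 in each stricter set. Leaving out Cdk6, an alternative chosen after the data were seen, left 29 summits with a median fold of 6.14. Of 55 highest folds of single genes under the alternatives, 52 stayed within 1.5 times the reported value. The exceptions were Ccne1 in its body alone (3.98), and Cdk4 and Cdk6 with 50 kb (15.9 and 18.1). In 5 cases an alternative left no peak for a gene. No paired analysis was possible because the peaks were called on merged libraries. For the same reason no error between cultures can be given, and a site without a peak is not shown to be unbound.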

Other observations

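Several of the summits between 10 and 50 kb from the members lay at non-coding RNA genes. A summit of 5.78-fold, 11946 bp before the first start site of Cdkn1a, was 93 bp from an end of Trp53cor1, the gene of the p53-induced RNA known as lincRNA-p21. Near Ccne1, a summit of 7.63-fold was 11 bp from an end of Gm30771, and 5 further summits beyond the 10 kb limit lay inside that gene. Near Cdkn1b, summits of 5.48-fold and 4.68-fold lay 30 and 456 bp from an end of 2810454H06Rik and 263 and 223 bp from an end of the coding gene Gpr19.

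The caller's values come in steps. Of the 43 peaks, 36 shared both fold and −log10 q exactly with at least 1 other peak of the list, as did 92.3% of all 27050 peaks. A summit in Cdk6 and another 8810 bp before Cdkn1a both had 7.10-fold enrichment with the same −log10 q of 15.8. The lowest summits of Ccnd3 and Cdk6 likewise shared 3.50-fold and a −log10 q of 4.83. Equal values of this kind describe steps of the measurement and not a likeness of the sites.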
